A study of Mus musculus with 24 samples.

Results

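The ETS factor genes described here are Spi1, Spib, Fli1, Erg, Ets1, Ets2, Etv6, Elf1, Elk3 and Gabpa. They are 10 of 21883 protein-coding genes placed on mm10. For each gene, the peaks of 4 deposited ChIP-seq lists that lay in its body or within 20 kb of either annotated end were taken. This gave 52 H3K27ac peaks without and 33 with doxycycline, and 184 and 138 H3K4me1 peaks. Together these are 407 of 272993 peaks. The rule names the genes and uses no measured value, but the genes were chosen with earlier results of these data known. The cells were TgSpi1 mouse erythroleukaemic cells, number 763, from leukaemic bone marrow, grown with erythropoietin. They carry a Spi1 transgene that overexpresses SPI1 and an inducible hairpin RNA against Spi1, in both groups compared. Cells labelled Dox_Untreated received no doxycycline, and cells labelled Dox_Treated had 48 h of it to induce the hairpin. No list used here had doxycycline without the hairpin, so effects of the drug and of less SPI1 cannot be told apart, and a single cell line was used. Each H3K27ac list stands for replicates 1 and 2 together and each H3K4me1 list for 1 replicate. There was thus 1 list per mark and condition, no replicate error and no test of any difference. The read depth behind the lists is unknown.

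ETS factors bind DNA through a winged helix domain that recognises a GGAA core, and their sites are shared widely among family members. SPI1, also called PU.1, drives myeloid and B cell programmes, and its overexpression in erythroid precursors blocks their differentiation. H3K27ac marks active promoters and enhancers. H3K4me1 marks enhancers whether active or not and often flanks active promoters.

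Over the genome, peak numbers were lower and median widths higher in the treated list of each mark. H3K27ac had 28902 and 23341 peaks with median widths of 1003 and 1353 bp, and H3K4me1 had 119362 and 101388 with 903 and 1153 bp. Part of any drop in peak number at a gene may belong to this shift, which was not tested. As a check of the labelled cell type, H3K27ac lay on or within 1 kb of 6 of 8 erythroid marker genes untreated and 8 of 8 treated. Hba-a1 and Slc4a1 had none in the untreated list. The same count was 1 of 6 myeloid markers in both lists, 0 of 4 T cell markers in both, 1 and 2 of 4 B cell markers, 2 of 4 endothelial markers in both and 4 of 4 megakaryocyte markers in both. H3K4me1 lay on 6 of 6 myeloid markers untreated and 3 of 6 treated, where Elane, Mpo and Itgam had none, and on 4 and 3 of 4 B cell markers. Its counts were equal in both lists for erythroid (8 of 8), T cell (3 of 4), megakaryocyte (4 of 4) and endothelial markers (2 of 4).

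Among the 10 members, Etv6 alone had a much shorter H3K27ac length after doxycycline, and no member had a much longer one. A member was called longer or shorter when its covered length plus 500 bp differed at least 1.5-fold between the lists of a mark. Of the 9 members with any H3K27ac peak, 0 were called longer and 1 shorter, Etv6. Over all 13827 protein-coding genes with an H3K27ac peak, 8.95% were called longer and 10.6% shorter, so the members' count is near the background. In H3K4me1 all 10 members had peaks. Ets2 was called longer and Etv6 shorter, against 9.38% longer and 7.63% shorter of 17529 genes. The median ratio of treated to untreated length was 0.954 for the members in H3K27ac and 0.987 for all genes, and in H3K4me1 0.991 and 1.06. By sign alone, 3 members had a longer and 6 a shorter H3K27ac length, and 4 a longer and 6 a shorter H3K4me1 length. Of all genes with an H3K27ac peak, 51.8% had a shorter H3K27ac length. In H3K4me1, 37.3% of all genes had a lower ratio than Elk3 (0.998), the shorter member nearest to 1.

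**Figure D1:**
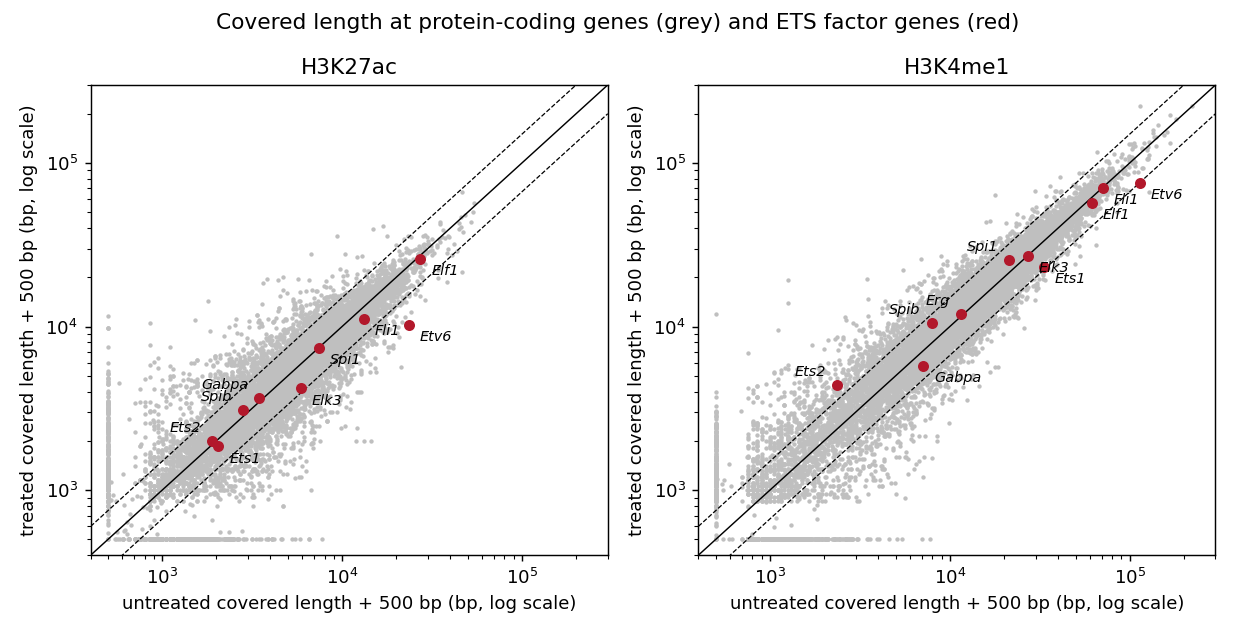
Covered length in gene body and 20 kb either side, without (x axis) and with doxycycline (y axis), each plus 500 bp on log axes, for all protein-coding genes with a peak (grey) and the ETS factor genes (red). The solid line marks equal lengths and the dashed lines a 1.5-fold difference. Etv6 lies below the lower dashed line in H3K27ac and on it in H3K4me1 (ratio 0.666), and Ets2 lies above the upper line in H3K4me1.

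Spi1 (chromosome 2, 91082374 to 91115759) had nearly the same H3K27ac length in both conditions. It had 8 peaks over 6974 bp untreated and 7 over 6871 bp treated. H3K4me1 covered 20826 bp of its window untreated and 25064 bp treated, a ratio of 1.20, with 17 and 13 peaks. Outside this window, 500 kb either side had a ratio of 1.13 in H3K4me1 and 1.15 in H3K27ac. More of both marks was thus listed around the gene, while in its window only H3K4me1 was longer (H3K27ac ratio 0.986). In the flank below the gene, a peak of 1753 bp untreated and 2053 bp treated overlaps the neighbouring gene Slc39a13, and a peak of 703 and 553 bp lies between the genes. At the lower annotated end of Spi1, the untreated H3K27ac peak of 903 bp at 91082549 to 91083451 had no treated counterpart, and the H3K4me1 peak over it was 1103 bp wide untreated and 453 bp treated. This was the 1 place at Spi1 where acetylation was listed in a single condition.

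In the middle of the gene, 2 H3K27ac peaks were wider after doxycycline. The peak at 91096849 to 91097801 was 953 bp wide untreated and 1203 bp treated, and the next at 91098849 to 91099851 was 1003 and 1203 bp. Between this point and the upper end, H3K4me1 peaks of 2503 and 1753 bp in the untreated list were joined into a peak of 6403 bp in the treated list. The upper end of the gene held 3 narrow H3K27ac peaks that began at the same bases in both lists. They measured 553, 403 and 703 bp untreated and 603, 503 and 753 bp treated. The Spi1 transgene and the gene itself cannot be told apart in these lists. SPI1 transcripts and protein were not measured here, and these marks do not show the depth of the knockdown.

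The protein-coding genes closest to Spi1 by distance over the log2 lengths of the 4 lists were Rps10 (0.0652), Fbrs (0.0790) and Pip4k2b (0.0854). Rps10, a ribosomal protein gene, had 6946 and 7059 bp of H3K27ac and 20113 and 25460 bp of H3K4me1. This likeness is over 4 values.

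Spib (chromosome 7, 44525995 to 44532087), which encodes the closest relative of SPI1 and acts in B cells and plasmacytoid dendritic cells, carried a single acetylated peak in its body. It measured 1003 bp untreated and 1053 bp treated. The gene's annotated start carried no H3K27ac in either list. The second H3K27ac peak of its window, 1303 and 1553 bp wide, lies in Pold1. Around Spib, H3K4me1 covered 7421 bp untreated and 10065 bp treated (ratio 1.33). A 703 bp H3K4me1 peak within 1 kb of its start, at 44531149 to 44531851, was in the untreated list alone. Most of the added H3K4me1 lay outside the gene, which itself had 2106 and 2403 bp. The 500 kb either side of the window held 180646 and 206651 bp of H3K4me1.

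**Figure D2:**
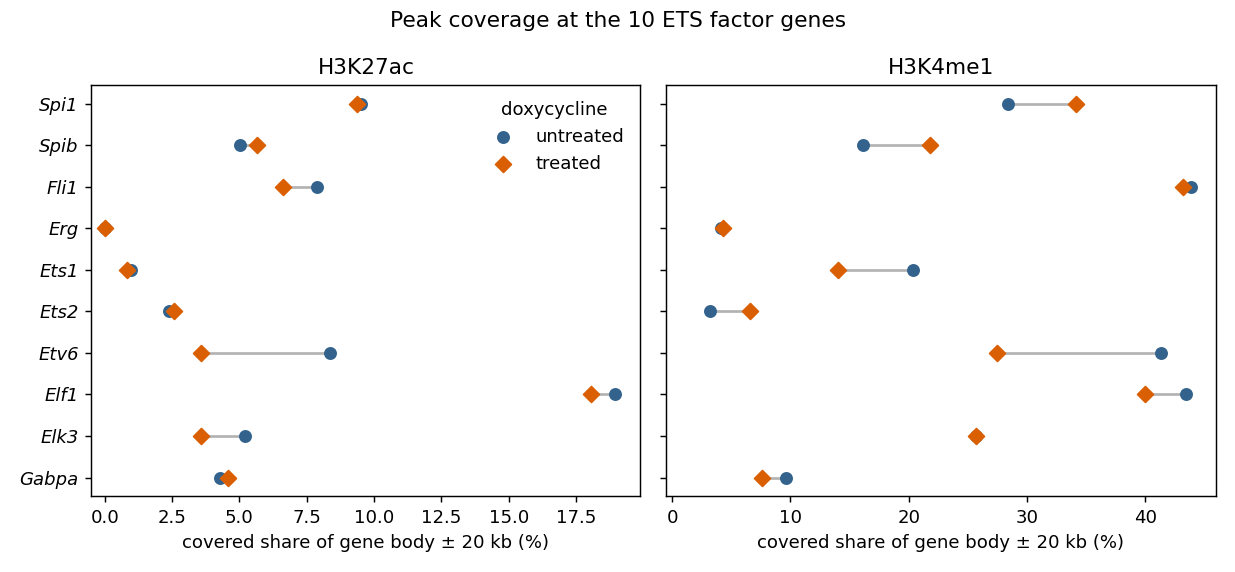
Share of each member's window covered by peaks, in percent, for H3K27ac (left) and H3K4me1 (right), without (circles) and with doxycycline (diamonds); each point is 1 list. Elf1 has the largest H3K27ac share in both lists, Erg is at 0, and the longest grey connector in each panel belongs to Etv6.

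Compared per length, Elf1 had the largest share of its window under H3K27ac peaks, 18.9% untreated and 18.1% treated. Spi1 followed at 9.5% and 9.36%. Etv6 came next untreated at 8.36% and was level with Elk3 treated, at 3.56% each, behind Fli1, Spib and Gabpa. Fli1 had 7.90% and 6.62%, Elk3 5.20% untreated, Spib 5.00% and 5.65%, and Gabpa 4.29% and 4.58%. Ets2 had 2.39% and 2.56%, Ets1 0.961% and 0.837%, and Erg none. The order of H3K4me1 shares differed from this. Fli1 led with 43.9% and 43.2%, next to Elf1 with 43.4% and 40.0%. Etv6 had 41.4% untreated and 27.5% treated, while Spi1 had 28.4% and 34.2%. Without replicate lists, neighbours in these orders cannot be separated by their spread. The windows also hold H3K27ac peaks on other genes, such as Slc39a13 at Spi1, Sugt1 at Elf1, Pold1 at Spib and Cdk17 at Elk3.

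Etv6 (chromosome 6, 134035700 to 134270158) encodes a repressor of the family, also called TEL, that stem cells of the bone marrow need and that recruits co-repressors. Its window held 17 H3K27ac peaks over 22951 bp untreated and 5 over 9765 bp treated, 42.5% of the untreated length (ratio 0.438 with 500 bp added). Of the 17 untreated peaks, 13 had no treated counterpart, and all 5 treated peaks overlapped an untreated one. The difference of -13186 bp was exceeded by 8 of 13827 genes. Long genes can lose more bp, so genes with at least 10000 bp in 1 of the lists were also compared, a set chosen after the values were seen. In that set 8.61% of 2277 genes were called longer and 7.25% shorter, and 30 had a lower ratio than Etv6.

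The acetylation listed in the untreated list alone was spread along the gene. These 13 peaks measured 153 to 1653 bp and summed to 7939 bp. The widest lay at 134071399 to 134073051, and the next, of 1103 bp, at 134170499 to 134171601. The outermost, of 903 bp, lay at 134243299 to 134244201. The other 4 untreated peaks were in both lists, with 15012 bp untreated and 9765 bp treated. The peak at the annotated start, which also overlaps Gm46977, went from 3453 to 2853 bp, and a peak in the body at 134082149 to 134083601 from 1453 to 1753 bp. The next, at 134129949 to 134131551, went from 1603 to 653 bp. The widest acetylated block, 8503 bp at 134182999 to 134191501, corresponded in the treated list to peaks of 2853 and 1653 bp. Of the acetylated places kept, the body peak of 1753 bp was the 1 that was wider after doxycycline.

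**Figure D3:**
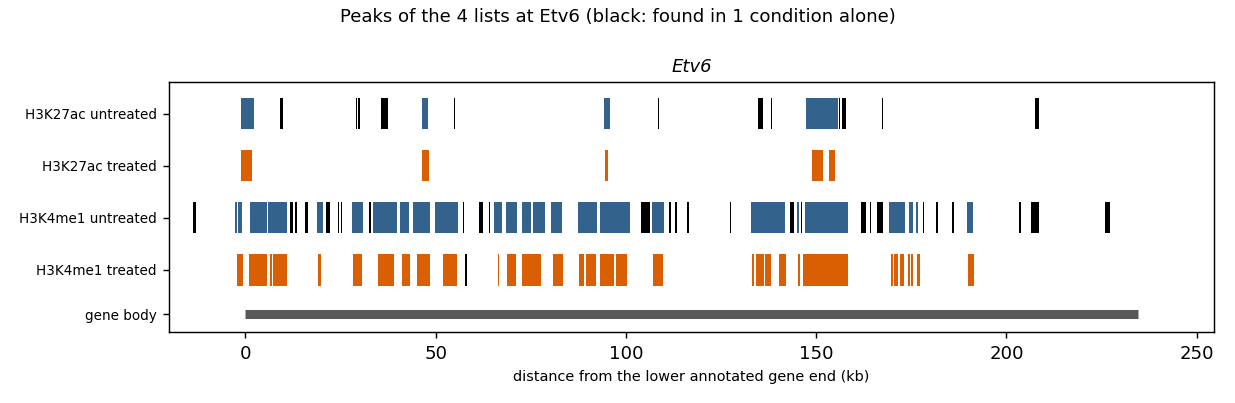
Peaks of the 4 lists along Etv6, with distance in kb from its lower annotated end, which is its start; blue is untreated, orange treated, black a peak without a counterpart in the other list, and the grey bar the gene body. The 13 black H3K27ac peaks lie along the gene, and the treated row holds 5 peaks.

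H3K4me1 at Etv6 moved the same way. It covered 113506 bp in 52 peaks untreated and 75449 bp in 33 peaks treated, a ratio of 0.666, just inside the threshold of 0.667. A single gene of 17529 lost more bp of H3K4me1. Among 11223 genes with at least 10000 bp of H3K4me1 in 1 of the lists, 4.19% were called longer and 1.75% shorter, and 194 had a lower ratio than Etv6. Cut into bins of 10 kb, 22 of 28 bins of the window had less H3K4me1 in the treated list, 2 had more and 4 were equal. For H3K27ac 12 bins had less, 1 more and 15 were equal. The equal bins of each mark held no peak of that mark in either list. At Ets1, 11 of 17 bins had less H3K4me1 in the treated list, 2 had more and 4 were equal. Fli1 had 7 bins with less and 6 with more, and Elf1 8 and 5. Spi1 had 3 and 4, Elk3 3 and 5, and Erg 1 and 4. The widest H3K4me1 block of Etv6 kept its size, at 11503 bp untreated and 11603 bp treated. It lies over the acetylated block whose H3K27ac peaks shrank from 8503 to 4506 bp in sum.

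Of the 13 H3K27ac peaks at Etv6 found without doxycycline alone, 12 overlapped H3K4me1 in the untreated list and 9 (69.2%) in the treated list. Over the genome 96.4% of 7928 such peaks overlapped treated H3K4me1. H3K4me1 was thus absent from the treated list at 4 of these 13 places, the narrowest of which had none untreated either. Outside its window, 500 kb either side of Etv6 held 14495 bp of H3K27ac untreated and 11177 bp treated (ratio 0.771). The H3K4me1 there was 144219 and 138568 bp (ratio 0.961). Chromosome 6 as a whole had ratios of 1.01 and 1.05. The surroundings thus changed less than Etv6 in both marks, in ratio.

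The 4 members closest to the founding ETS factor were unlike in their marks. Fli1 (chromosome 9, 32422204 to 32543432), a factor of megakaryocytes that Friend virus can activate in erythroleukaemia, had 11 H3K27ac peaks over 12733 bp untreated and 7 over 10671 bp treated. The ratio was 0.844. Peaks of 303, 653 and 353 bp were in the untreated list alone. The first 2 were in the gene body, at 32495749 to 32496051 and 32508049 to 32508701, and the last in the flank at 32562849 to 32563201. Untreated peaks of 2753 and 703 bp near the upper end matched a single treated peak of 3053 bp. In the flank beyond this end, a peak of 1303 bp untreated was 2853 bp wide treated. The gene body thus lost acetylated length, from 10624 to 7265 bp, and the flanks gained it, from 2109 to 3406 bp. H3K4me1 covered 70800 and 69638 bp. It included a block of 21253 bp that ranked 67 of 119362 by the authors' score in the untreated list. In the treated list the widest was 16953 bp.

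**Figure D4:**
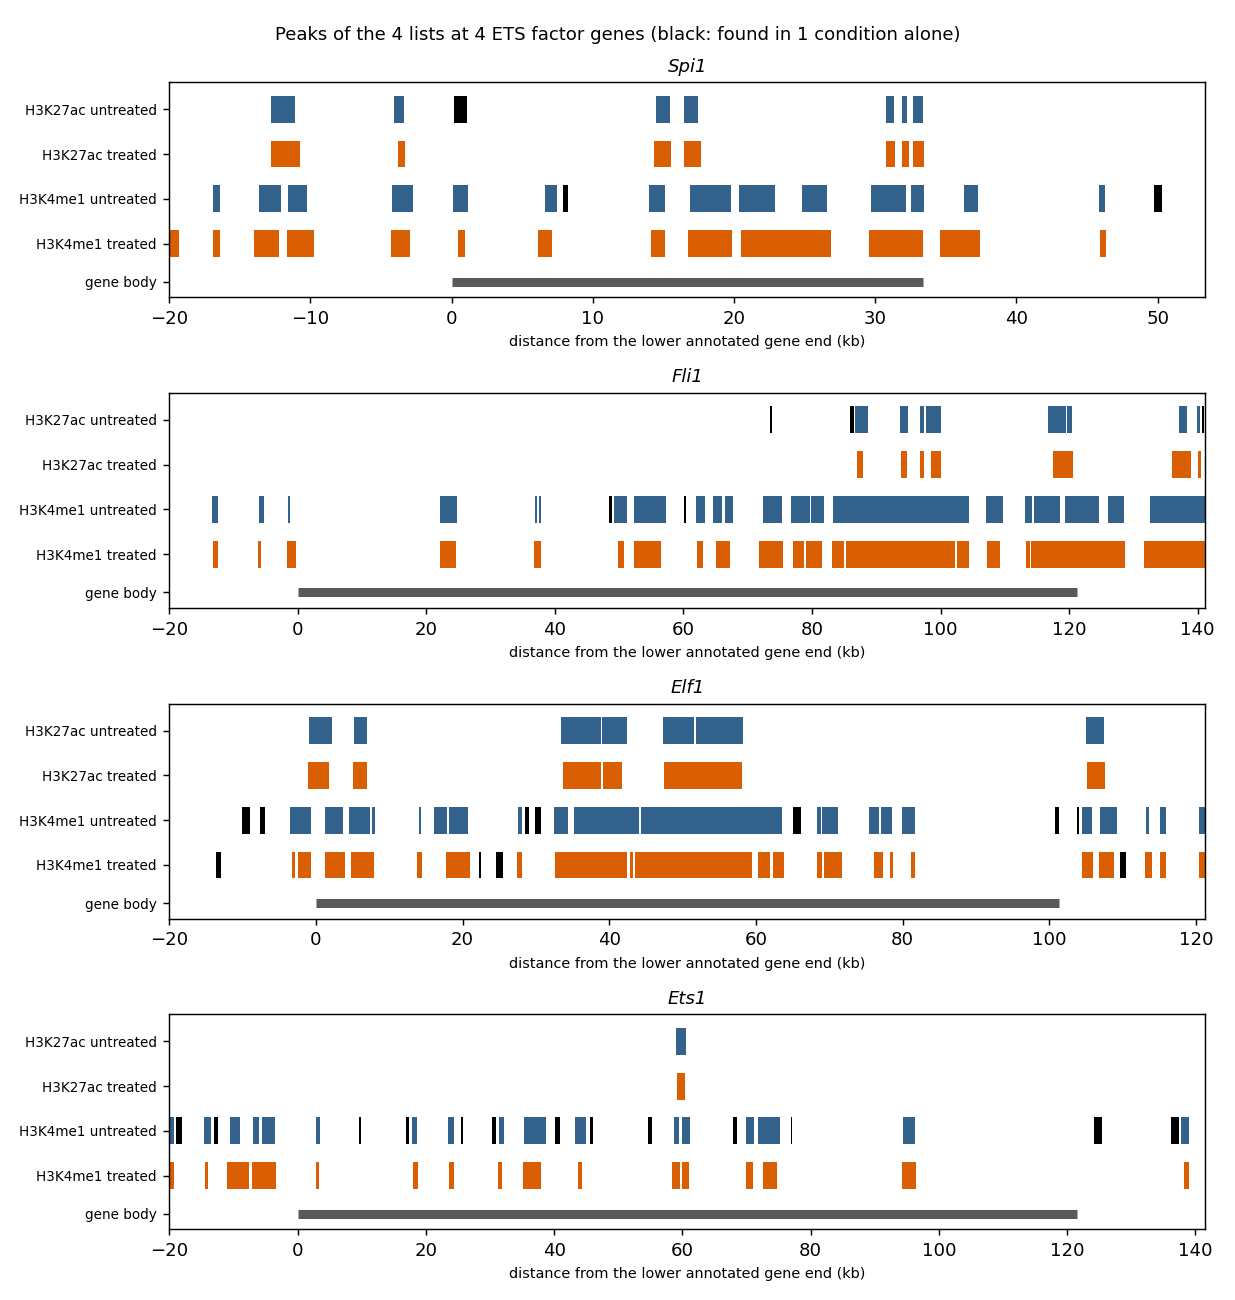
Peaks of the 4 lists at Spi1, Fli1, Elf1 and Ets1, with distance in kb from the lower annotated gene end; blue is untreated, orange treated, black a peak without a counterpart in the other list, and the grey bar the gene body. Spi1 shows 1 black H3K27ac peak at its lower end, Fli1 shows 3, and Elf1 and Ets1 show none.

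Ets1 (chromosome 9, 32636241 to 32757820), a lymphoid regulator, had a single H3K27ac peak, inside the gene, in each list. It was 1553 bp wide untreated, at 32695299 to 32696851, and 1353 bp treated. H3K4me1 at Ets1 went from 32898 bp in 30 peaks to 22706 bp in 16 peaks, a ratio of 0.695, just outside the threshold. Of the 30 untreated H3K4me1 peaks 17 overlapped a treated one, and all 16 treated peaks overlapped an untreated one. Over the genome 73.3% of untreated and 79.2% of treated H3K4me1 peaks overlapped the other list. All 13 H3K4me1 peaks listed in 1 condition alone at Ets1 were thus in the untreated list, and the 2 widest of them, of 1153 bp, lay in the flank. Of all genes, 120 lost more bp of H3K4me1, and 8.38% had a lower ratio. With the better 50% of each list, which for H3K27ac means the widest peaks, Ets1 was called shorter in H3K27ac, with 1553 and 0 bp (ratio 0.244). The treated peak was as wide as its list's median of 1353 bp and fell out at the cut. The untreated list had a median of 1003 bp, so its peak was kept. This call thus rests on the place of the cut.

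Erg (chromosome 16, 95359169 to 95586600), a factor of stem cells and megakaryocytes, had no H3K27ac peak in either list over its 267 kb window. H3K4me1 covered 11009 bp in 3 peaks untreated and 11471 bp in 7 peaks treated. Most of it was a block of 8403 bp untreated at 95433949 to 95442351, which ranked 2019 of 119362 by the authors' score and matched treated peaks of 653 and 6403 bp. Peaks of 353, 753 and 653 bp were in the treated list alone.

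Ets2 (chromosome 16, 95702407 to 95721049), a target of growth factor signalling that lies next to Erg, had a single H3K27ac peak at its start, 1403 bp wide untreated and 1503 bp treated. H3K4me1 covered 1859 bp in 3 peaks and 3865 bp in 5 peaks, the shortest lengths of the 10 members in both lists. The ratio of 1.85 put it above 95.5% of genes. Of the added length, 2 peaks of 653 and 753 bp beyond the upper end, at 95727049 to 95727701 and 95728649 to 95729401, were in the treated list alone. With 5 kb either side of the gene in place of 20 kb, these peaks fell outside and Ets2 was no longer called.

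Elf1 (chromosome 14, 79481174 to 79582491), an activator of haematopoietic genes, had the longest acetylated length of the members and changed little. It had 7 H3K27ac peaks over 26771 bp untreated and 6 over 25518 bp treated, a ratio of 0.954, with every peak in both lists. The peak at its start, 3153 and 2853 bp wide, also overlaps Wbp4. The neighbouring untreated peaks of 4153 and 6453 bp matched a single treated peak of 10653 bp. H3K4me1 went from 61374 to 56568 bp and included a block of 19203 bp untreated, which ranked 212 by the authors' score in that list. The last H3K27ac peak of the window, 2453 and 2353 bp wide, overlaps Sugt1.

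Elk3 (chromosome 10, 93247415 to 93311159), a ternary complex factor that works with SRF and can repress, had 5396 bp of H3K27ac in 4 peaks untreated and 3693 bp in 3 peaks treated. The ratio of 0.711 was the lowest after Etv6 and was not called. A peak of 453 bp at 93261649 to 93262101 was in the untreated list alone. The peak at the start went from 1503 to 753 bp, and one in the body from 853 to 1053 bp. The widest, 3453 and 2353 bp, lies in the neighbouring gene Cdk17. In the gene body alone, H3K27ac covered 2717 and 1514 bp, a ratio of 0.626, and Elk3 was then called shorter. H3K4me1 did not follow, with 26682 and 26620 bp in the window.

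Gabpa (chromosome 16, 84834891 to 84863783) encodes the DNA-binding subunit of GABP, an activator of mitochondrial and housekeeping genes. Its single H3K27ac peak was 2953 bp wide untreated, at 84833799 to 84836751, and 3153 bp treated. The peak covers the start of Gabpa and an annotated end of Atp5j, which overlap, so it cannot be assigned to either. H3K4me1 went from 6623 bp in 5 peaks to 5256 bp in 2 peaks, a ratio of 0.808. Peaks of 1103 and 1503 bp in the flanks were in the untreated list alone.

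Annotated start sites show which of the members with such an entry were acetylated there. Spi1, Fli1 and Ets1 had no entry, and transcription itself was not analysed. RefSeq promoter windows on GRCm38.p6 (250 bases before to 50 after a start) matched 7 members with 10 windows, namely Spib, Erg, Ets2, Etv6, Elf1, Elk3 and Gabpa. H3K27ac lay on 6 windows in both lists, those of Ets2, Etv6, Elk3, Gabpa and both of Elf1. The windows of Spib and the 3 of Erg had none. H3K4me1 left 4 of the 6 acetylated windows free but lay within 2 kb of all 6 in both lists. At Etv6, 2653 bp of H3K4me1 lay within 2 kb of the window treated and 1856 bp untreated, against the shorter lengths over the rest of the gene.

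The 250 bases before the start are shown for 2 acetylated starts, Etv6 and Gabpa, and for 2 without H3K27ac, Spib and the outermost start of Erg, so that their base composition can be compared. They are read 5′ to 3′ on the gene's strand, and capitals mark CpG dinucleotides.
Etv6 (chr6:134035450-134035699, plus strand): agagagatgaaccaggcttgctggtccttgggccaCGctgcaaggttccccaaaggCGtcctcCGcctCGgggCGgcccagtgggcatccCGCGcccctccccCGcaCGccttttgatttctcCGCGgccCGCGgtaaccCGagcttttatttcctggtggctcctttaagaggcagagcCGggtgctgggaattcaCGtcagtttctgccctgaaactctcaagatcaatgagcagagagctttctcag
Gabpa (chr16:84834874-84835123, plus strand): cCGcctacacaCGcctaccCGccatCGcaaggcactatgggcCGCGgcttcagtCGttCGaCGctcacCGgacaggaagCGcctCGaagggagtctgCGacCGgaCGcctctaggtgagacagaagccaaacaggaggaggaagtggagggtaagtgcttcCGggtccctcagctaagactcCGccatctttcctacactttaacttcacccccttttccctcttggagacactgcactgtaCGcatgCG
Spib (chr7:44532072-44532321, minus strand): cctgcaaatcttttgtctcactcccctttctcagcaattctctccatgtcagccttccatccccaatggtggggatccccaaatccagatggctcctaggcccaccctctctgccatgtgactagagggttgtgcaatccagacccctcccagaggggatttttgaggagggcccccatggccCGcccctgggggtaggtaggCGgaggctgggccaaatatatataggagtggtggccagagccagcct
Erg (chr16:95586594-95586843, minus strand): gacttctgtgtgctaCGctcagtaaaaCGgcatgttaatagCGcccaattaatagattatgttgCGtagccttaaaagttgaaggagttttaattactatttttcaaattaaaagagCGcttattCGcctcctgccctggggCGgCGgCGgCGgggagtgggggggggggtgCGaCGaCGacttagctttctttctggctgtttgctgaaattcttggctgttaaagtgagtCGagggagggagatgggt
Etv6 has 16 CpG here, Gabpa 19, Spib 2 and this start of Erg 14, against a median of 6 over 32851 promoter windows. Among the other acetylated starts, Ets2 has 25, Elk3 19, the outer start of Elf1 35 and its inner start 2. The inner starts of Erg have 2 and 3. Of the 6 acetylated starts 5 thus had more CpG than any of the 4 without H3K27ac, and the inner start of Elf1 was the exception.

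ETS sites were searched in the 300 bases on both strands as GAGGAAGT, a SPI1 type site, and CCGGAAGT, a site of the GABPA and ETS1 type. The first was found in 1 of the 10 windows, that of Gabpa, where it spans bases 138 to 145 of the sequence printed above, and in 3.20% of all promoter windows. The second was found in 0 of the 10 and in 3.89% of all. These matches describe letters and not binding.

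**Figure D5:**
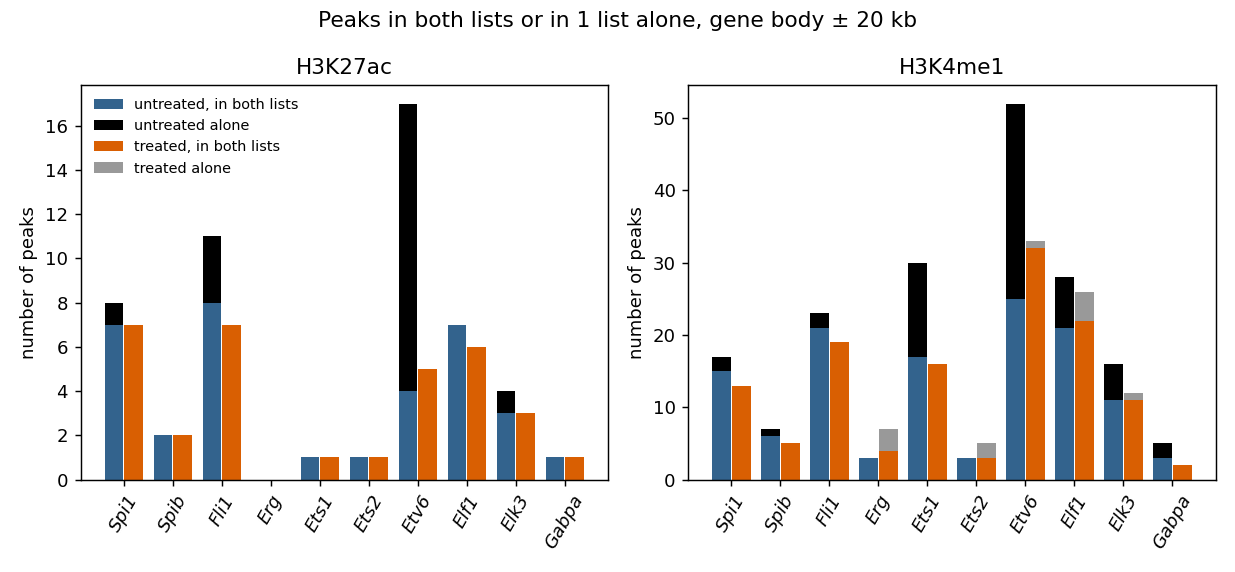
Number of peaks in each member's window that overlap the other list of the mark (blue untreated, orange treated) or are in 1 list alone (black untreated, grey treated); bars start at 0. Etv6 has 13 of its 17 untreated H3K27ac peaks in black, and no member has a grey H3K27ac segment.

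Over the members together, some acetylated peaks were in the untreated lists alone and none was in the treated list alone. All 33 treated H3K27ac peaks overlapped an untreated one (exact 95% interval 89.4 to 100%, counting error over peaks only), against 82.9% of all treated peaks. Of 52 untreated peaks 34 overlapped a treated one, 65.4% (50.9 to 78.0%), against 72.6% of all untreated peaks. Without Etv6 this share was 85.7% (30 of 35), so the lower share rests on that gene, whose own was 23.5% (6.81 to 49.9%). Peaks of a window share a gene and are not replicates. Of the 18 untreated-only peaks, 16 lay in a gene body, 1 near a gene end and 1 in a flank. The 13 of Etv6 are among these 16. Of all 52 untreated peaks, 36 lay in a gene body, 8 near a gene end and 8 in a flank. In H3K4me1, 67.9% of 184 untreated peaks and 92.0% of 138 treated peaks overlapped the other list, against 73.3% and 79.2% of all. Without Etv6 these were 75.8% and 90.5%.

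The other 16 ETS family genes were examined in the same windows. H3K27ac peaks were listed at 10 of them, of which 2 were called longer and 2 shorter (background 8.95% and 10.6%). Ehf, an epithelial ETS factor, had 353 bp untreated and 5356 bp treated. Elk4, a ternary complex factor, had 6768 and 11415 bp. In the other direction, Elf4, a relative of Elf1, had 13183 and 7115 bp, and Etv4 had 1306 and 0 bp. The 6 without H3K27ac were Fev, Elf3, Spdef, Spic, Etv1 and Elf5. The median H3K27ac ratio of the list was 0.938. In H3K4me1, 12 of 15 genes with a peak were longer by sign and 3 shorter, with 1 called in each direction and a median ratio of 1.12. Over all genes 9.38% were called longer and 7.63% shorter, with a median ratio of 1.06.

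Partners and opponents of ETS factors were examined in the same way. Of 16 such genes 12 had an H3K27ac peak, 6 longer and 6 shorter by sign, with 0 called either way and a median ratio of 0.996. Over all genes 8.95% were called longer and 10.6% shorter, so a count of 0 among 12 is near the background. Gata1, whose product opposes SPI1, had 14968 and 13221 bp of H3K27ac and 29201 and 34295 bp of H3K4me1. Runx1, which encodes a partner of several ETS factors, had 35754 and 38236 bp of H3K27ac. Gabpb1, which encodes the partner subunit of GABPA, had 9062 and 6659 bp, the lowest ratio of the list at 0.749. Irf4 and Irf8, which encode partners of SPI1, and the myeloid factor genes Cebpa and Gfi1 had no H3K27ac in either list. In H3K4me1, 0 were called longer and 1 shorter, Cebpa, with 1156 bp untreated and 0 bp treated, against 9.38% and 7.63% of all genes. The partner genes given here were chosen for their roles after the values were seen.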

How the data were processed

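The 4 peak lists used stand for 6 of the series' 24 samples, grouped by sample title, with each H3K27ac list covering replicates 1 and 2. The other samples were not analysed here. Tools named in the submitters' processing notes are BWA and bcl2fastq 2.17.1.14, with mm10 as the build. How peaks were called, and how the H3K27ac replicates were joined, is not given in the sources used here. Each deposited H3K27ac list holds peak positions and widths. The deposited H3K4me1 lists give the authors' score per peak, of unstated scale, used to rank peaks within a list (Spearman rho 0.984 with width, over peaks). A further column was not used. Peaks on assembled chromosomes were kept, read as 1-based with both ends included.

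Gene ends came from RefSeq on GRCm38.p6, the assembly mm10 names, and promoter sequences from the same build. Covered bp were summed per window. Peaks in both lists overlap by at least 1 bp. Intervals are exact Clopper-Pearson at 95% and cover counting error over peaks only. Python 3.11.15, numpy 2.4.6, pandas 2.3.3, scipy 1.17.1 and matplotlib 3.10.9 were used, checked against bedtools 2.31.1 and tested on simulated data. The members and lists were chosen with earlier results of these data known. All members were named. From the other lists, the rule took genes called in H3K27ac (at most 5 per direction), and for Spi1 the 3 closest genes. The labels describe replicates as biological, but no replicate lists were compared.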

Additional observations from a re-analysis of the deposited data

How the results depend on the processing

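No paired analysis was possible because each mark and condition has 1 list. Etv6 stayed called shorter in H3K27ac under all 11 alternatives it entered (ratio 0.408 to 0.526), while its H3K4me1 ratio (0.627 to 0.686) lies at the threshold. For the alternatives, the share of all genes called was not computed. The counts of called members below thus have no background to be read against. The number of members called shorter in H3K27ac was 2 in gene bodies alone, 3 with the better 50% of each list (Etv6, Elk3 and Ets1) and 2 at a lower fold threshold. Better meant wider for H3K27ac, which has no score, and a higher authors' score for H3K4me1. The H3K27ac cut lay near the median widths, 1003 bp untreated and 1353 bp treated, and so was stricter for treated peaks. The same ranking was used for equal numbers of peaks. For H3K4me1 the number called shorter was 2 in gene bodies alone, with scaled treated lengths, with peaks within 1 kb merged and at the lower fold threshold. It was 0 with the better 50% of each list, with equal numbers of peaks and at a fold of 2. The number called longer in H3K4me1 was 0 with windows of 5 kb or 50 kb, in gene bodies alone, with the better 50% and at a fold of 2, and 2 at the lower fold threshold. With 5 kb windows the member called shorter in H3K4me1 was Ets1 (0.638) and not Etv6 (0.671). Leaving out Etv6, added after seeing the data, gave 0 called shorter in either mark, and shares of untreated peaks in both lists of 85.7% in H3K27ac and 75.8% in H3K4me1. With a reciprocal overlap of 50%, the shares were 84.8% of treated H3K27ac peaks, and 45.7% of untreated and 60.9% of treated H3K4me1 peaks. With the better 50% of each list 97.4% of treated H3K4me1 peaks were shared, and with equal numbers of peaks 78.6% of untreated H3K27ac peaks. The cause of these shifts was not tested. Read depth is unknown, and covered lengths depend on how many peaks were called.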
